A study of Rattus norvegicus with 20 samples.

Results

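Chemotherapy given to tumour-bearing rats on either of 2 diets was compared here with no chemotherapy, in order to describe the muscle genes that moved the same way whatever the diet. The samples were chosen by their labels, as every library treated with chemotherapy, on the control diet (CHEMO STD, 7 libraries) or on a diet containing fish oil (CHEMO FO, 8 libraries), against the untreated TUMOUR STD libraries (5), so that 15 of the 20 libraries of the series formed the treated side. All animals were female Fischer 344 rats implanted with the Ward colorectal carcinoma, left to grow 2 weeks ahead of treatment, and the tissue was gastrocnemius muscle. Chemotherapy was 2 cycles of CPT-11 (irinotecan) followed by 5-FU (5-fluorouracil, 50 mg/kg), and muscle was taken 7 days after the second cycle. TUMOUR STD animals ate the standard diet and received no drug. Animals of CHEMO FO changed to fish oil, which supplied EPA and DHA, when chemotherapy began. No animal on fish oil went without chemotherapy, so in the CHEMO FO arm the drugs and the diet cannot be told apart. Every animal bore a tumour, so an action of the drugs on muscle and an action through the tumour cannot be told apart either. The paper reports that animals ate less after chemotherapy on both diets, so lower food intake cannot be told apart from the drugs. The sources used here tie no age to a sample and give no sampling day for TUMOUR STD.

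Irinotecan is converted to a poison of topoisomerase I, and 5-fluorouracil blocks thymidylate synthase and is built into RNA. Both act most on dividing cells, whereas the muscle fibre is a long-lived cell that does not divide. A whole gastrocnemius sample holds fast and slow fibres together with vessels, connective tissue, nerve, fat and blood cells, and its RNA is the sum of them. In such bulk samples, fewer cells of a type and less RNA per cell cannot be told apart. Muscle fibres carry their own circadian clock, in which ARNTL (BMAL1) and CLOCK switch on genes such as Nr1d1, Per3 and Dbp, and the product of Nr1d1 represses Arntl in turn.

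CHEMO STD replicates 1 and 2 were much closer to each other than any other libraries of a group, with a chi-square per gene of 2.23, where counting noise alone gives about 1 and the 58 remaining within-group library pairs gave 13.7 to 255, and were summed and counted as 1 sample (CHEMO STD n = 6, CHEMO FO n = 8, TUMOUR STD n = 5). Total counts on genes were 5422118 to 10857477 per library in TUMOUR STD and 3020821 to 10516783 in the chemotherapy arms. Markers of fast muscle fibres were high in every sample, at a summed 110000 to 210000 CPM (library-size-scaled counts, after TMM). A single TUMOUR STD library, replicate 10, stood apart. A list of keratinocyte genes (13 in the files), which mark skin, summed to 568 CPM there and to 5.82 to 7.96 CPM in the other TUMOUR STD libraries. In the chemotherapy arms that sum was 2.75 to 8.48 CPM, except for 118 CPM in CHEMO FO replicate 16. The keratin genes Krt5 and Krt14 were at 35.1 and 38.7 CPM in TUMOUR STD replicate 10, at 11.5 and 10.8 CPM in CHEMO FO replicate 16, and at 0 in all chemotherapy samples but that. CHEMO STD replicate 7 was highest in a pan-leukocyte list, at 322 CPM against 44 to 98.9 CPM in CHEMO FO and 54.9 to 90.8 CPM in TUMOUR STD. CHEMO FO replicate 18 was lowest in the fast fibre list (110000 CPM against 168000 to 210000 CPM elsewhere) and highest in macrophage markers (910 CPM).

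Few genes separated the treated from the untreated muscles, and those that did were mostly lower after chemotherapy. All 3 groups entered a single quasi-likelihood model in edgeR, the arms were given equal weight, and a gene was called where its unadjusted p was below 0.05 and its change at least 1.5-fold. Of 11716 genes tested, 312 (2.66%) were called in the pooled comparison, 80 higher (0.683%) and 232 lower (1.98%). By the same rule 279 genes (2.38%) were called in CHEMO STD versus TUMOUR STD and 422 (3.6%) in CHEMO FO versus TUMOUR STD. A gene counted as moving the same way where it was called in the pooled comparison and in each arm in the same direction. There were 110 such genes (0.939% of those tested), of which 26 were higher (0.222%) and 84 lower (0.717%). The 2 arms were set against the same TUMOUR STD samples, so a library that is odd in TUMOUR STD moves both arms alike. After Benjamini-Hochberg adjustment in edgeR 0 genes were below 0.05 in the pooled comparison (smallest adjusted p 0.392, or 0.997 without TUMOUR STD replicate 10). In that comparison 1055 genes had an unadjusted p below 0.05 with all samples, and 586 would be expected if nothing differed. Genes are not independent of each other, so the 586 is no fair yardstick for the 1055. The adjusted p of 0.997 leaves no such excess without TUMOUR STD replicate 10. DESeq2 and limma voom (with sample quality weights) also passed 0 genes, with smallest adjusted p values of 0.0508 and 0.101. In what follows, "rose" and "fell" mean called by the unadjusted rule and nothing stronger.

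**Figure D1:**
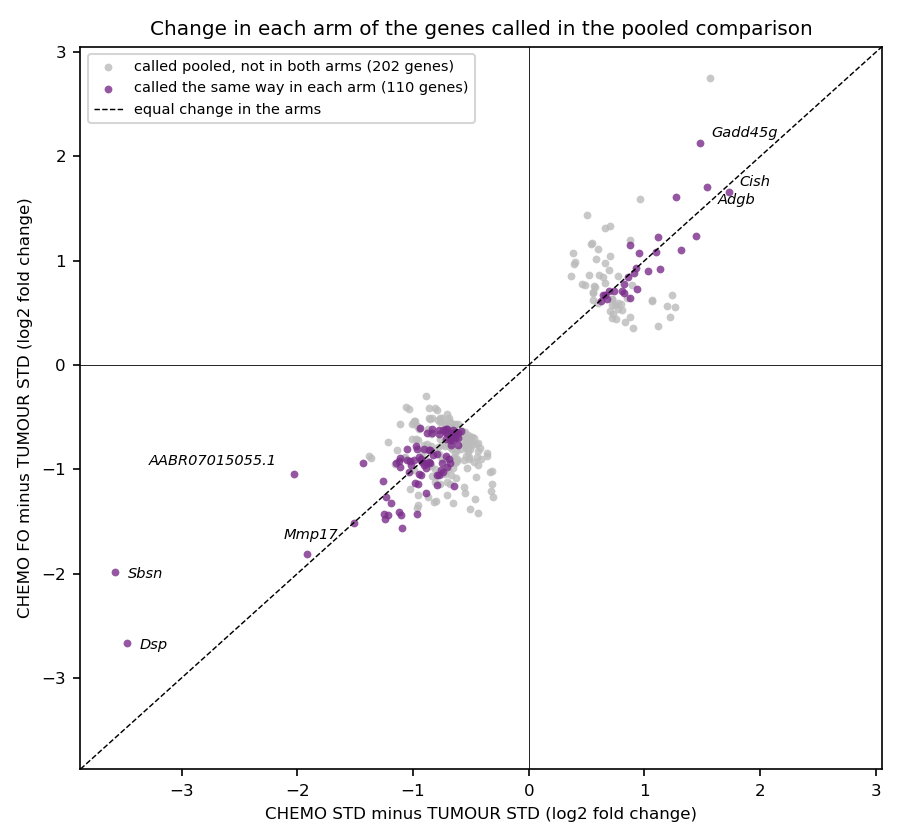
Log2 fold change from TUMOUR STD in CHEMO STD (horizontal axis) and in CHEMO FO (vertical axis) for the 312 genes called in the pooled comparison, 1 point a gene, with the 110 genes called the same way in each arm in purple and a dashed line where both arms change equally. Both axes share the TUMOUR STD samples, and most purple points change by less than 2 on the log2 scale, with Dsp and Sbsn far lower.

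The count rested heavily on TUMOUR STD replicate 10. Without that library 168 genes were called in the pooled comparison, 60.1% of them lower (60.5% without replicate 8), against 74.4% with all samples. Of the 168, 48 moved the same way, 38 of them among the 110 (10 of the 26 higher genes and 28 of the 84 lower ones). Other TUMOUR STD libraries moved the count the other way, to 203 without replicate 8 and 204 without replicate 11. Leaving out any single chemotherapy library gave 82 to 136 genes, and 91 without CHEMO FO replicate 18, 76 of them among the 110. Leaving out CHEMO STD replicates 1 and 2 together, which removes their joint sample, gave 179, of which 101 were among the 110. A core of 21 genes kept the same-way call in all 20 fits that left out 1 library, none of which removed that joint sample. The 6 higher genes of that core were Arntl, Cish, Cyb5d2, Gadd45g, Mnda and Thg1l. The 15 lower ones were AABR07015057.1, Acta2, Bmp5, Cacna1d, Ccnd1, Cdh2, Cox4i2, Edar, Egflam, Fras1, Myh11, Nr1d1, Per3, Piezo2 and Sema4c.

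**Figure D2:**
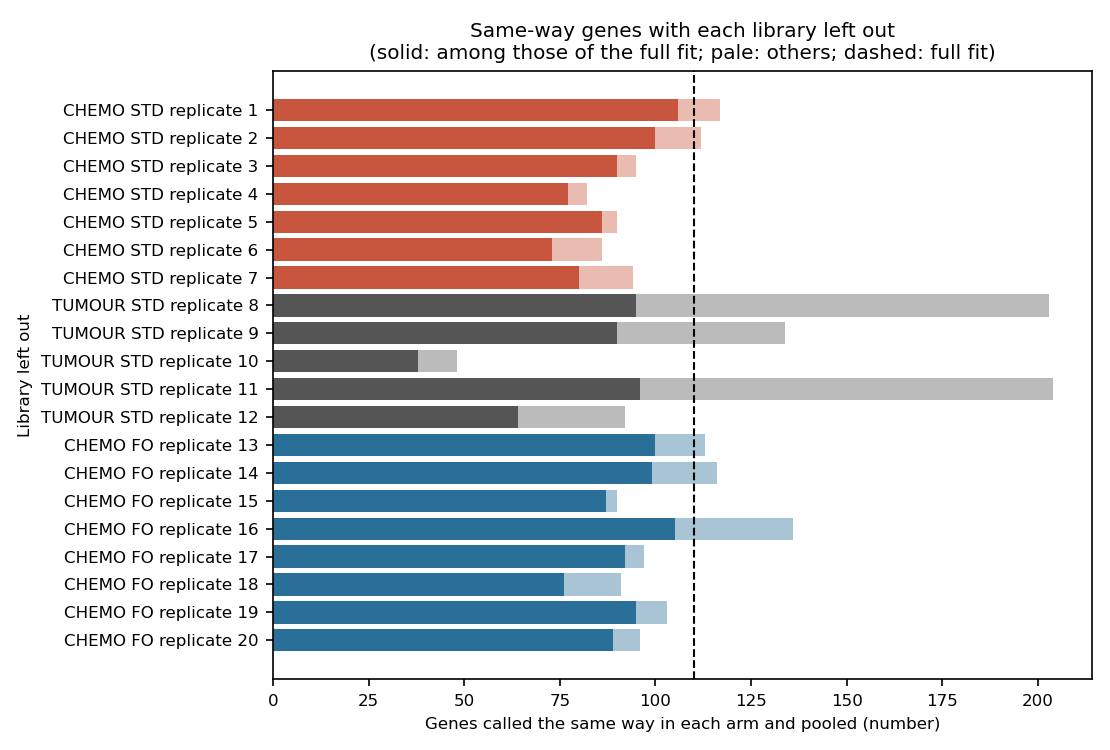
Number of genes called the same way in each arm and in the pooled comparison (horizontal axis) with each of the 20 libraries left out (vertical axis). Solid bars count genes among the 110 of the full fit (dashed line) and pale bars count others, and the shortest bar, 48 genes, is that of TUMOUR STD replicate 10.

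Several genes of the smooth muscle contractile apparatus, which in muscle surrounds the arterioles, were lower after chemotherapy on both diets. Of 12 genes listed, 11 were tested and 11 had negative fold changes in the pooled comparison (11 in CHEMO STD and 9 in CHEMO FO), with a median log2 fold change of -0.57 against 0.000419 over all genes tested. Of these 11, Myh11, Acta2, Tagln, Mylk and Actg2 fell in the pooled comparison, and the first 4 fell in each arm.
Myh11, the smooth muscle myosin heavy chain, had the smallest p of all genes. It was at 125, 110, 103, 72.8 and 64.4 CPM in the TUMOUR STD samples, at 30 to 62.7 CPM in CHEMO STD (median 53.7) and at 35.3 to 79.4 CPM in CHEMO FO (median 48.4). All CHEMO STD samples lay below all TUMOUR STD samples, and 1 CHEMO FO sample reached into the TUMOUR STD range. Its log2 fold change was -0.92 ± 0.18 (SE), with a 95% interval of -1.29 to -0.55 and an unadjusted p of 3.39e-05 (adjusted p = 0.392). The change was -0.93 in CHEMO STD and -0.91 in CHEMO FO, and the arms differed by 0.02 (95% interval -0.39 to 0.43). Without TUMOUR STD replicate 10 it was -0.89.
Acta2, smooth muscle actin, was at 21.7, 36.9, 27.4, 13.4 and 18.6 CPM in TUMOUR STD, against 6.12 to 17.2 CPM in CHEMO STD (median 8.36) and 7 to 17 CPM in CHEMO FO (median 13.8). The ranges overlapped through the TUMOUR STD sample at 13.4 CPM. The gene changed by -1.0 ± 0.23 on the log2 scale (unadjusted p = 0.000225), and by -1.11 and -0.89 in the 2 arms.
Tagln (transgelin, an actin-binding protein of smooth muscle) had a log2 fold change of -0.68 ± 0.21 and Mylk (myosin light chain kinase) of -0.69 ± 0.19. Without TUMOUR STD replicate 10 Tagln kept its call at -0.67, and Mylk did not at -0.53, while Tagln lost its call without TUMOUR STD replicate 8, at -0.58.
The list was not uniform, and its summed level did not fall, with medians of 4290 CPM in TUMOUR STD, 4380 CPM in CHEMO STD and 5750 CPM in CHEMO FO. Des alone gave most of that sum, at 3030 to 6870 CPM in TUMOUR STD. Lmod1 and Des, the latter also the main intermediate filament of skeletal fibres, had log2 fold changes of -0.02 and -0.06, and Smtn of -0.27.
Pericyte markers, the contractile cells around capillaries, were negative in 7 of 7 genes tested with a median of -0.35, and Cspg4 (-0.65) and Notch3 (-0.64) fell in the pooled comparison, with values of -0.41 and -0.33 without TUMOUR STD replicate 10. Endothelial markers had a median of -0.17 over 12 genes, with 0 called.

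**Figure D3:**
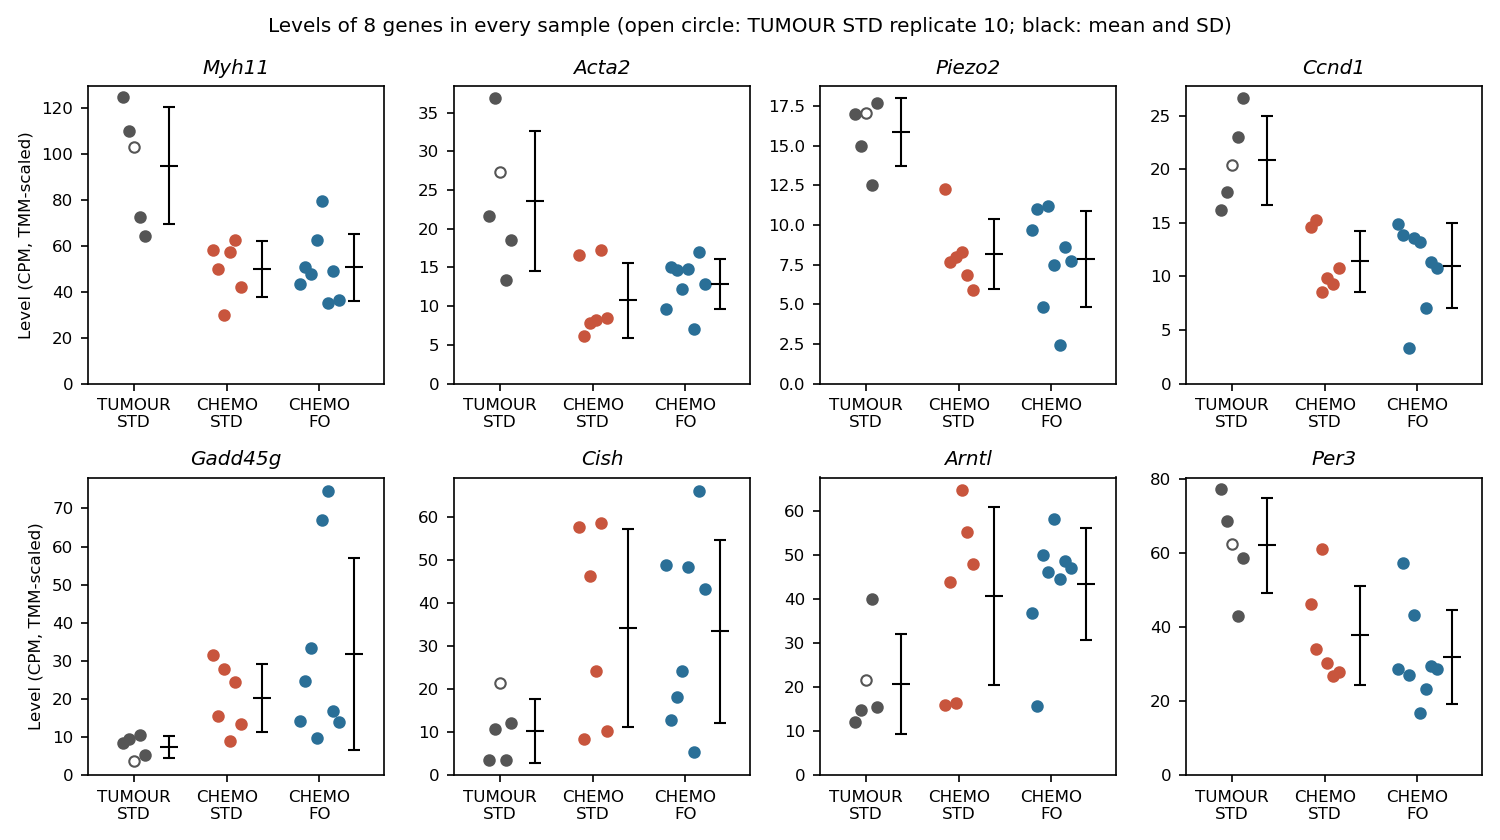
Level in CPM (vertical axes, from 0) of 8 genes in every TUMOUR STD, CHEMO STD and CHEMO FO sample, with the mean and SD of each group in black beside the points. Myh11, Acta2, Piezo2, Ccnd1 and Per3 lie lower in both chemotherapy groups and Gadd45g, Cish and Arntl higher, and TUMOUR STD replicate 10 (open circle) is the lowest of its group for Gadd45g, at 3.79 CPM, and the highest for Cish, at 21.5 CPM, and lies inside its group for the other six.

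Clock genes moved in both directions. Of 18 clock genes tested, 7 had positive and 11 negative fold changes. Arntl and Nfil3 rose in the pooled comparison (Nfil3 by 1.43 in CHEMO FO and 0.51 in CHEMO STD, with 143 CPM in CHEMO FO replicate 18), and Dbp, Nr1d1, Per3, Bhlhe41 and Bhlhe40 fell. Of these 7, Arntl, Dbp, Nr1d1, Per3 and Bhlhe40 were called in each arm, and all 5 kept that call without TUMOUR STD replicate 10.
Promoter sequence is shown for the 5 clock genes called in each arm because such genes are known to be wired through short elements, the E-box CACGTG bound by ARNTL with CLOCK, the D-box TTANGTAA bound by DBP and its relatives, and the ROR element core TAGGTCA bound by NR1D1. The 250 bases before each RefSeq start site (GRCr8) were searched on both strands. Across 33469 such windows, 5.59% held the E-box, 2.04% the D-box and 2.26% the ROR element core. The windows with a match are printed 5′ to 3′ on the gene's strand, the match in capitals.
Nr1d1 (chr10:84229455-84229704, minus strand, E-box): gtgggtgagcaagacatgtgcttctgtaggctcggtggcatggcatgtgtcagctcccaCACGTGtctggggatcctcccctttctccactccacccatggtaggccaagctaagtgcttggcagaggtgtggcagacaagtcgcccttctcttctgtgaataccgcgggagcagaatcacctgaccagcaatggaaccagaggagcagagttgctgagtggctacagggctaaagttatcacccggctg
Bhlhe40 (chr4:143174200-143174449, plus strand, E-box): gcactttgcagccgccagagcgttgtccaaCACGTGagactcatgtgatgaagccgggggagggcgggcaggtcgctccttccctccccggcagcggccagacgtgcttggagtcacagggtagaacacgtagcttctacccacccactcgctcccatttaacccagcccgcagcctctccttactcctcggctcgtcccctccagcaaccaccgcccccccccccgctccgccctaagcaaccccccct
Arntl, listed by RefSeq as Bmal1 (chr1:176766078-176766327, plus strand, ROR element core): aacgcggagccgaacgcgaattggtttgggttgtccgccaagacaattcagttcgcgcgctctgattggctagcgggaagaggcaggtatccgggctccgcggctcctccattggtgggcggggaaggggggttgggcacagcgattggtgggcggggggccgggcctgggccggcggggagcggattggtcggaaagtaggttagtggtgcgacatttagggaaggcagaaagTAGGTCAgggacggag
The E-box of Nr1d1 starts 191 bases before the start site and that of Bhlhe40 220 bases before it, and the ROR element core of Arntl starts 16 bases before it. The other Nr1d1 window listed and the windows of Per3 and Dbp held none of the 3 motifs, which says only that these letters are not in those windows.

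Arntl, the activating partner of the clock, was at 12, 14.8, 21.5, 40 and 15.4 CPM in TUMOUR STD. It was at 16 to 64.9 CPM in CHEMO STD (median 45.9) and at 15.8 to 58.3 CPM in CHEMO FO (median 46.6). The groups overlapped, since TUMOUR STD replicate 11 stood at 40 CPM while CHEMO STD replicates 1 and 2 (16), CHEMO STD replicate 4 (16.4) and CHEMO FO replicate 14 (15.8) stood at the TUMOUR STD level. Arntl changed by 1.01 ± 0.33 on the log2 scale (95% interval 0.33 to 1.69, unadjusted p = 0.00514), with 0.95 in CHEMO STD and 1.07 in CHEMO FO.
Dbp, an output gene of the clock, was at 88.4, 77.9, 79.2, 30.4 and 137 CPM in TUMOUR STD, at 14.8 to 71.5 CPM in CHEMO STD (median 26.2) and at 10.4 to 103 CPM in CHEMO FO (median 24.2). The same samples stood out in reverse. TUMOUR STD replicate 11 held the lowest Dbp of its group, and the 3 chemotherapy samples with the lowest Arntl held the 3 highest Dbp values, 71.5, 54.1 and 103 CPM. Dbp changed by -1.26 ± 0.40 on the log2 scale (unadjusted p = 0.00445).
Nr1d1, the repressor known as REV-ERBα, was at 126, 225, 268, 117 and 240 CPM in TUMOUR STD, at 77.8 to 121 CPM in CHEMO STD (median 101) and at 46.7 to 192 CPM in CHEMO FO. CHEMO STD overlapped TUMOUR STD by 1 sample, and CHEMO FO ran well into its range. The log2 fold change was -0.88 ± 0.25 (unadjusted p = 0.00197), and an exact permutation test of log2 CPM over the 19 samples gave p = 0.0104 (two-sided).
Per3, a period gene, was at 77.3, 68.6, 62.4, 43 and 58.7 CPM in TUMOUR STD, at 26.7 to 61 CPM in CHEMO STD (median 32.1) and at 16.7 to 57.2 CPM in CHEMO FO (median 28.7). Its log2 fold change of -0.84 ± 0.21 had the smallest p of the clock genes (unadjusted p = 0.000615). Bhlhe40, a repressor of clock transcription, had a log2 fold change of -0.65 ± 0.18, which fell short of the fold threshold without TUMOUR STD replicate 9 or CHEMO FO replicate 18.
Other clock genes did not pass the rule. Per1, which glucocorticoids also induce, was at 0.13 ± 0.42 and Per2 at -0.48 ± 0.33, while Clock (0.36), Npas2 (0.53) and Cry1 (0.24) had positive values. Cry2 (-0.36) and Nr1d2 (-0.43) had unadjusted p values of 0.00783 and 0.0183 but changed by less than 1.5-fold. The hour at which each muscle was taken is not given in the sources used here, and its part in these differences was not tested.

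**Figure D4:**
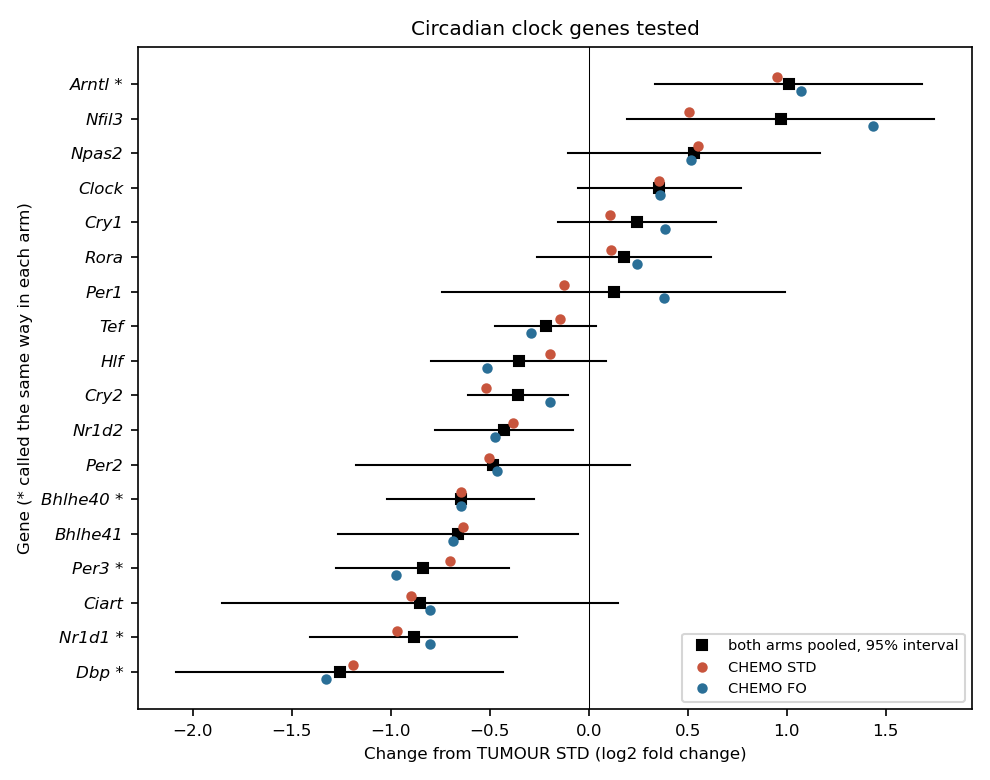
Log2 fold change from TUMOUR STD (horizontal axis) of the 18 clock genes tested (vertical axis), pooled over both arms with its 95% interval (black squares and lines) and in CHEMO STD and CHEMO FO separately (coloured points). Asterisks mark the 5 genes called the same way in each arm, with Arntl at 1.01 at the top and Dbp at -1.26 at the bottom.

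Gadd45g showed the smallest p of the genes that rose. It belongs to the GADD45 proteins, which stress induces and which bind cell-cycle and MAP kinase partners. It was at 8.34, 9.55, 3.79, 10.5 and 5.15 CPM in TUMOUR STD, at 8.9 to 31.5 CPM in CHEMO STD (median 20) and at 9.77 to 74.6 CPM in CHEMO FO (median 20.7). Only 1 sample of each chemotherapy arm fell within the TUMOUR STD range. The log2 fold change was 1.81 ± 0.44 (95% interval 0.89 to 2.72, unadjusted p = 0.000445), and it was 1.48 in CHEMO STD and 2.13 in CHEMO FO, a difference of 0.64 whose 95% interval ran from -0.19 to 1.48. The exact permutation test gave p = 0.00206 (two-sided, 19 samples). The 2 highest samples were CHEMO FO replicates 17 (67.1 CPM) and 18 (74.6 CPM).
Gadd45a was at 0.90 ± 0.49 and Gadd45b at 0.12 ± 0.27, and neither passed the rule in the pooled comparison. CHEMO FO replicate 18 held 77.4 CPM of Gadd45a, where every other sample held 5.15 to 12.7 CPM. The p53 target list, which DNA damage switches on, had 15 genes tested, 7 of them positive, a median of -0.0034 and 0 called.
Cish, a feedback inhibitor that STAT5 induces downstream of growth hormone and cytokines, was at 3.47, 10.7, 21.5, 3.56 and 12.1 CPM in TUMOUR STD, at 8.26 to 58.5 CPM in CHEMO STD (median 35.2) and at 5.36 to 66 CPM in CHEMO FO (median 33.7). Each arm held samples within the TUMOUR STD range. Cish changed by 1.70 ± 0.54 on the log2 scale (unadjusted p = 0.0044) and the arms differed by -0.07 (95% interval -1.09 to 0.95). Of the 18 growth hormone and IGF1 genes tested, Cish and Castor1 rose, 0 fell and the median was -0.11. Socs2, another STAT5 target, was at 0.10 ± 0.26 and Igf1 at -0.30 ± 0.19. Castor1, an arginine sensor that restrains mTORC1, had a log2 fold change of 0.62 ± 0.20, and 0.58 without TUMOUR STD replicate 10, where it missed the fold threshold.
Ptrh2, a mitochondrial peptidyl-tRNA hydrolase, was at 5.21, 8.95, 4.47, 5.66 and 9.05 CPM in TUMOUR STD, at 8.58 to 14 CPM in CHEMO STD and at 9.61 to 12.5 CPM in CHEMO FO, with the CHEMO FO samples all above TUMOUR STD. It changed by 0.70 ± 0.17 on the log2 scale, and by 0.58 without TUMOUR STD replicate 10, where it lost its call. Thg1l, which adds a guanosine to histidine tRNA, was at 1.01 ± 0.28.
The remaining higher genes were mostly scarce. Of the 26, 20 had a mean below 10 CPM. Cyb5d2, a haem-binding protein, was at 0.347 to 1.62 CPM in TUMOUR STD against 1.4 to 4.14 CPM in the chemotherapy arms (log2 fold change 1.34 ± 0.34). Mnda, a nuclear antigen of myeloid cells, was at 1.24 to 2.95 CPM against 1.4 to 8.54 CPM (1.21 ± 0.33). Macrophage markers had a median of 0.21 over 15 genes, with 1 called higher, and their part in the Mnda result was not tested. Lrrc30 (1.44 ± 0.47), Ptpn2 (0.66 ± 0.21, a tyrosine phosphatase that restrains JAK-STAT signalling), Msantd2 (0.83), Arl10 (0.76), Asgr2 (0.76), Mdm1 (0.97) and AABR07055919.1 (1.03) complete the 15 with the smallest p. Ptpn2 missed the fold threshold, at 0.56, with either TUMOUR STD replicate 10 or CHEMO FO replicate 18 removed.

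Among lower genes outside the smooth muscle and clock lists, 3 of the 84 were lower in every chemotherapy sample than in every TUMOUR STD sample. Over all genes tested, 4 (0.0341%) lay wholly below and 2 (0.0171%) wholly above.
Piezo2, a mechanically gated cation channel known from sensory neurons, was at 17, 15, 17.1, 12.5 and 17.7 CPM in TUMOUR STD, at 5.9 to 12.3 CPM in CHEMO STD (median 7.82) and at 2.45 to 11.2 CPM in CHEMO FO (median 8.2). Piezo2 changed by -0.99 ± 0.22 on the log2 scale (unadjusted p = 0.000186).
Ccnd1, cyclin D1, which drives entry into the cell cycle, was at 16.2, 17.9, 20.4, 23 and 26.6 CPM in TUMOUR STD, at 8.52 to 15.3 CPM in CHEMO STD (median 10.3) and at 3.29 to 14.9 CPM in CHEMO FO (median 12.3). It changed by -0.90 ± 0.21 on the log2 scale (unadjusted p = 0.000307), with -0.86 and -0.93 in the arms. The proliferation list had too few genes above the filter to describe a group (5 of 15, 0 called).
Scube2, a secreted protein that helps release Hedgehog, was the third, at 8.86, 8.85, 10, 9.06 and 11.2 CPM in TUMOUR STD, 4.13 to 8.27 CPM in CHEMO STD and 1.18 to 7.92 CPM in CHEMO FO.
These 3 genes were picked out by their values, and each was separated by a small step, from 12.3 to 12.5 CPM for Piezo2, 15.3 to 16.2 CPM for Ccnd1 and 8.27 to 8.85 CPM for Scube2.
Sema4c (a semaphorin, -0.93 ± 0.21), Cox4i2 (the oxygen-regulated isoform of cytochrome oxidase subunit 4, -1.06 ± 0.25), Parp2 (a DNA damage sensor, -0.70 ± 0.17), Prox1 (a homeobox factor of lymphatic endothelium and slow fibres, -0.76 ± 0.19), Ano1 (a calcium-activated chloride channel, -0.72 ± 0.17) and Egflam (pikachurin, -0.70 ± 0.18) had unadjusted p values below those of most called genes. Without TUMOUR STD replicate 10 all 6 stayed lower, and 5 of them, all but Ano1, kept the same-way call. Over the 20 fits that left out 1 library, Parp2 kept the same-way call in 16, Prox1 in 17 and Ano1 in 18, and Parp2 lost its pooled call without TUMOUR STD replicate 12. Bmp5, a bone morphogenetic protein, was narrow in TUMOUR STD, at 5.39, 5.07, 5.15, 4.85 and 5.5 CPM, against 2.36 to 3.93 CPM in CHEMO STD and 1.47 to 5.07 CPM in CHEMO FO (log2 fold change -0.79 ± 0.23). Cdh2 (N-cadherin, -1.36 ± 0.37) and Fras1 (a basement membrane protein, -0.95 ± 0.27) were also in the core of 21.
AABR07015057.1, a protein-coding locus with no other name in the files, was at 273, 388, 433, 165 and 411 CPM in TUMOUR STD, 119 to 259 CPM in CHEMO STD and 102 to 289 CPM in CHEMO FO. The change was -0.82 ± 0.22.

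Slow fibre genes all had negative fold changes (11 of 11 tested, median -0.34), but Myh7 alone was called. Their summed level had a median of 14300 CPM in TUMOUR STD and 9180 CPM in the chemotherapy arms, with overlapping ranges (8410 to 16600 CPM and 5720 to 16000 CPM). Myh7, the slow myosin heavy chain, was at 6460, 7380, 9610, 3420 and 7170 CPM in TUMOUR STD, at 2710 to 4730 CPM in CHEMO STD (median 3520) and at 2320 to 7410 CPM in CHEMO FO (median 3800). All TUMOUR STD samples but replicate 11 lay above every CHEMO STD sample, while 2 CHEMO FO samples, at 7070 and 7410 CPM, stood among these higher TUMOUR STD samples. The TUMOUR STD range as a whole, which replicate 11 extends down to 3420 CPM, held 4 of the 6 CHEMO STD and 6 of the 8 CHEMO FO samples. The log2 fold change was -0.77 ± 0.23 (95% interval -1.25 to -0.30, unadjusted p = 0.00282), with -0.94 in CHEMO STD and -0.61 in CHEMO FO, and the exact permutation test gave p = 0.0135 (two-sided). Without TUMOUR STD replicate 10 it was -0.62 and still called pooled, but no longer in each arm. Myh7b (-0.50) and Atp2a2, the slow calcium pump (-0.51), had unadjusted p values of 0.00733 and 0.00701 but changed by less than 1.5-fold. Myh6 (-0.58) shares most of its sequence with Myh7, and how the counting split such reads is not given in the sources used here. Fast fibre genes had a median of 0.06 over 10 genes, with 0 called.

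Tendon and matrix genes were lower too, but here the size of the change depended on TUMOUR STD replicates 10 and 12. All 14 tendon and myotendinous junction genes had negative fold changes (median -0.81), 6 fell in the pooled comparison and Fmod, Col12a1 and Tnc fell in each arm. Without TUMOUR STD replicate 10 the median was -0.54, 3 were called and 0 moved the same way. The summed level of the list was 982, 1130, 2610, 996 and 2330 CPM in the TUMOUR STD samples, 599 to 1940 CPM in CHEMO STD (median 766) and 484 to 1520 CPM in CHEMO FO (median 966). Replicates 10 and 12 of TUMOUR STD, and the joint sample of CHEMO STD replicates 1 and 2 (1940 CPM), were high in tendon genes.
Tnc, tenascin C, a matrix protein of tendon and of remodelling tissue, shows the pattern. It was at 39.8, 36.8, 136, 42.1 and 146 CPM in TUMOUR STD, at 20.3 to 77.8 CPM in CHEMO STD (median 25.8) and at 8.82 to 63.2 CPM in CHEMO FO (median 34.2). The log2 fold change was -1.25 ± 0.39 (unadjusted p = 0.00369), and it was -0.97 without replicate 10 and -0.92 without replicate 12. Fmod lost its pooled call without replicate 10 (-0.70) and Col12a1 without replicate 12 (-0.61).
Of 14 fibrillar collagen and matrix genes 13 were negative (median -0.44), and Col1a1 (-1.17), Sparc (-0.72) and Fn1 (-0.68) fell, of which only Fn1 fell in each arm and it lost its call without replicate 10 (-0.42) or 12 (-0.53), whereas without replicate 10 the median was -0.25 with 0 called. Basement membrane genes were negative in 9 of 9 (median -0.35, 0 called, and -0.23 without replicate 10). The part that tendon carried along with the muscle had in these differences was not tested.

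Genes of skin, and some other genes, were called lower with TUMOUR STD replicate 10 and not without it. Dsp (desmoplakin, of the desmosomes that join epithelial cells) was at 5.21, 4.77, 176, 2.43 and 3.73 CPM in TUMOUR STD, at 0.612 to 4.76 CPM in CHEMO STD and at 2.05 to 34.6 CPM in CHEMO FO. Its log2 fold change of -3.07 ± 0.73, the largest in size of the 110, was 0.21 without TUMOUR STD replicate 10. Sbsn (suprabasin, of the epidermis) went from -2.78 to -0.07, Chl1 (an adhesion molecule) from -1.86 to 0.20, and Ptprf and Nectin1 from -0.92 and -0.93 to -0.27 and -0.30. All 5 were called the same way with that library and were not called without it.

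Genes known to be engaged in muscle wasting held no pooled calls. The atrophy ubiquitin ligase list had a median of 0.03 over 12 genes with 0 called. Its best known members, Trim63 (0.64 ± 0.48) and Fbxo32 (0.81 ± 0.43), did not pass the rule in the pooled comparison. They were called in CHEMO FO (1.26 and 1.27) and not in CHEMO STD (0.01 and 0.35). Trim63 was at 2590 CPM in CHEMO FO replicate 18 and at 194 to 415 CPM in all other samples. Fbxo32 was at 1870 CPM in that library, up to 650 CPM in the rest of CHEMO FO and 161 to 354 CPM in TUMOUR STD. Oxidative phosphorylation (-0.01 over 24 genes), glycolysis and glycogen (-0.03 over 17) and autophagy and lysosome genes (0.08 over 14) had 0 called.
Genes of the cytosolic ribosome had positive fold changes in 24 of 24 tested, with a median of 0.20, and 0 changed by 1.5-fold. Rpl7, a ribosomal protein outside the naming rule and picked by its values, was 288 to 424 CPM in TUMOUR STD and 424 to 527 CPM in the chemotherapy arms. Proteasome genes were positive in 23 of 26 (median 0.14, 0 called).
Glucocorticoid targets were positive in 14 of 15 (median 0.51). Zbtb16 (0.61 ± 0.24), Cebpd (1.28 ± 0.49) and Sult1a1 (0.72 ± 0.28) rose and Dusp1 (-0.59 ± 0.18, close to the fold threshold) fell in the pooled comparison, and of the 4 only Sult1a1 moved the same way in each arm. In CHEMO FO 8 of the 15 were called higher, and in CHEMO STD 1, where 128 and 109 of all 11716 genes tested were. The median was 0.26 in CHEMO STD and 0.74 in CHEMO FO, and the difference of these medians was not tested. Tsc22d3 (0.51 ± 0.25) and Fkbp5 (0.45 ± 0.37) did not pass the rule. CHEMO FO replicate 18 was the highest sample for Cebpd (92.2 CPM) and Tsc22d3 (653 CPM). Summed over the list, that sample held 3490 CPM and CHEMO FO replicate 17 held 1920 CPM, against 532 to 968 CPM in the rest of CHEMO FO. The part of these 2 samples in the list's median was not tested.
Leukocyte genes did not behave alike in the arms. The pan-leukocyte list had a median of 0.78 in CHEMO STD and -0.04 in CHEMO FO, and of 0.38 pooled, which became -0.01 without CHEMO STD replicate 7.

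**Figure D5:**
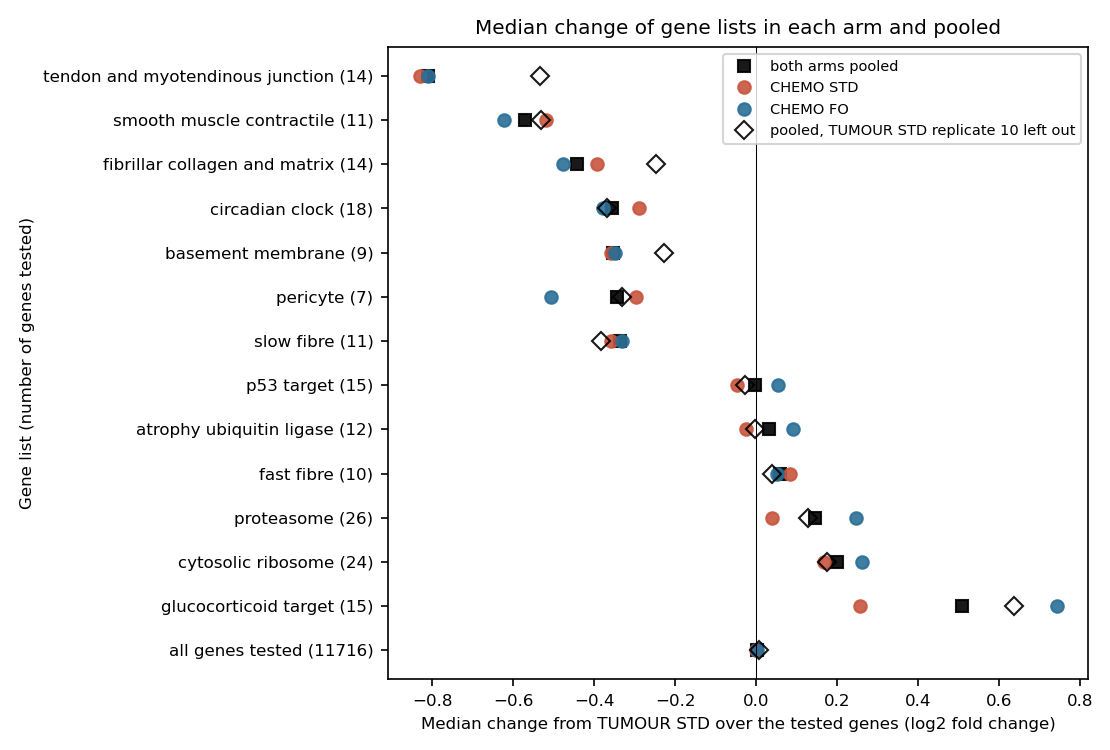
Median log2 fold change from TUMOUR STD over the tested genes of 13 lists and over all genes tested (horizontal axis), pooled (black squares), in each arm (coloured points) and pooled without TUMOUR STD replicate 10 (open diamonds), with the number of genes tested in brackets. Smooth muscle, clock, pericyte and slow fibre medians stay near their values without that library, and those of tendon, matrix and basement membrane move towards 0.

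The arms themselves were close for the 110 genes, as the same-way rule favours. The median absolute difference between CHEMO FO and CHEMO STD was 0.115 on the log2 scale, and for 87 of the 110 the 95% interval of the difference lay within 1 of 0, but for 19 it lay inside 1.5-fold, so differences of 1.5-fold between the diets were not excluded for most. Across all genes tested 528 (4.51%) had an unadjusted p below 0.05 for CHEMO FO versus CHEMO STD, and 1 of the 110 did. That was AABR07015055.1, a protein-coding locus with no other name in the files, at 119, 288, 476, 67.5 and 122 CPM in TUMOUR STD, 31.2 to 85.4 CPM in CHEMO STD (median 50.9) and 51.2 to 199 CPM in CHEMO FO (median 89.8). Its log2 fold change was -2.02 in CHEMO STD and -1.04 in CHEMO FO, a difference of 0.98 (95% interval 0.22 to 1.75), and the pooled value was -1.53, or -1.01 without TUMOUR STD replicate 10.

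Of the 312 pooled calls, 61 were also called in CHEMO STD alone, 119 in CHEMO FO alone and 22 in neither arm. Armcx4 had the smallest p among these, at 9.21, 11.6, 10.1, 7.12 and 10.6 CPM in TUMOUR STD, 5.7 to 10.1 CPM in CHEMO STD and 2.53 to 6.44 CPM in CHEMO FO, with all CHEMO FO samples below TUMOUR STD. Its change was -0.32 in CHEMO STD and -1.01 in CHEMO FO, and the arms differed by -0.70 (95% interval -1.10 to -0.29). For 5 other genes called in 1 arm the interval of the difference between the arms included 0. Sema5a, a semaphorin, was at -0.44 and -0.83 in the 2 arms, Naca, a chaperone of nascent chains, at -0.69 and -0.51, and Ppp1r3c, which targets a phosphatase to glycogen, at 0.56 and 0.76. AABR07002768.1 (0.72 and 0.58) and AABR07068341.1 (0.56 and 0.62) missed the fold threshold in 1 arm. Of these 5 each lost its pooled call in at least 1 of 20 fits that left out 1 library, AABR07068341.1 in 8, Naca in 5, with -0.26 without TUMOUR STD replicate 9, Ppp1r3c in 3, Sema5a in 2 and AABR07002768.1 in 1.
Dusp1, an immediate early phosphatase, was called in CHEMO STD (-0.88) and not in CHEMO FO (-0.30). Its pooled value lies at the fold threshold, and the pooled call was lost in 11 of 20 fits that left out 1 library (-0.69 to -0.47). It was at 123, 66.9, 87.6, 74.7 and 122 CPM in TUMOUR STD, at 38.7 to 64.5 CPM in CHEMO STD and at 55.9 to 115 CPM in CHEMO FO. All CHEMO STD samples lay below TUMOUR STD and the CHEMO FO samples did not. The arms differed by 0.59 (95% interval 0.18 to 0.99), and the exact permutation test of both arms against TUMOUR STD gave p = 0.033 (two-sided).

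The exact permutation test was also run for 2 genes that were too scarce for the fit. Myo3b, an unconventional myosin, had a mean log2 CPM lower by 1.23 after chemotherapy (p = 0.0324, two-sided, exact), at 0.809 to 2.61 CPM in TUMOUR STD and 0 to 2.79 CPM in the chemotherapy arms, and no library held more than 17 counts. Cd209f, a lectin of macrophages, was at 0 to 0.355 CPM in TUMOUR STD, at 0.414 to 2.02 CPM in CHEMO STD and at 0 to 2.4 CPM in CHEMO FO (median 0.232). All CHEMO STD samples lay above TUMOUR STD, 6 of the 8 CHEMO FO samples lay within its range, and both arms together against TUMOUR STD gave an exact permutation p = 0.11. With 5 TUMOUR STD samples and 14 treated ones there were 11628 arrangements, so the smallest p this test can give is 8.6e-05, which Myh11 came nearest at p = 0.00043 (exact, two-sided).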

How the data were processed

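RNA was sequenced from 20 gastrocnemius samples as rRNA-depleted stranded libraries. The authors trimmed, aligned and counted the reads on rat genes (submitters' notes: Trim Galore 0.4.1, TopHat2 2.0.10, Bowtie2) and deposited raw counts per gene. How strand and multiply mapped reads were handled is not stated by any source used; it could shift counts of overlapping and near-identical genes. Of 32883 rows, 388 without a gene name (0.102% to 0.272% of counts) were left out. Replicates are separate samples by label, so p-values measure the spread between these samples.

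Analysis used edgeR 4.0.16 under R 4.3.3 (default filter, minimum count 10 and total 15, TMM, 3 groups in 1 quasi-likelihood fit). DESeq2 1.42.0 (no filter on low counts) and limma voom 3.58.1 with sample quality weights were run beside it. The contrast was the mean of both arms minus TUMOUR STD. Single genes were tested by exact permutation of log2 CPM (prior count 2). Intervals are 95%. Named genes were the 15 higher and 15 lower same-way genes with the smallest p. Added to these were some list members, some genes the study names, and 3 higher and 3 lower called in 1 arm. Lists (50, of which 556 genes were tested) carry no test. Members and lists were chosen with earlier results of these data known. The pipeline was tested on simulated data, with 100 genes changed 2-fold and 100 changed 1.5-fold among 11716 drawn independently. In the pooled comparison 93% and 48% of these were called, and 84% and 28% moved the same way. Unchanged genes alone gave 164 pooled calls and 44 same-way calls. The real data gave 312 and 110, and 168 and 48 without TUMOUR STD replicate 10. Of the 110 genes, 69 matched a RefSeq promoter (GRCr8). Figures used matplotlib.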

Additional observations from a re-analysis of the deposited data

Results flagged for a closer look

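Dixon's test at 95% was run on 285 sets, each a gene named here within a group, and marked 46, where 1 set in 20 would be 14.2. Some of these genes were named because of stray values in these same samples, and the sets of a sample are not independent. The 14.2 is therefore no fair yardstick for the 46. Most of the marked sets fell on 4 samples, CHEMO FO replicate 18 (11 sets), the joint sample of CHEMO STD replicates 1 and 2 (10), CHEMO FO replicate 16 (7) and TUMOUR STD replicate 10 (6).

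The skin genes Dsp, Sbsn, Krt5 and Krt14, together with Chl1 and Ptprf, stood out in the last 2 of these. In TUMOUR STD replicate 10 Dsp was at 176 CPM (next 5.21), Sbsn at 28.9 (next 2.1), Chl1 at 17.4 (next 1.95), Ptprf at 34.3 (next 12), Krt5 at 35.1 (next 0.71) and Krt14 at 38.7 CPM (next 0). In CHEMO FO replicate 16 Dsp was at 34.6 CPM, Sbsn at 11.5, Chl1 at 3.49, Ptprf at 15.4, Nectin1 at 5.24, Krt5 at 11.5 and Krt14 at 10.8 CPM.

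CHEMO FO replicate 18 was high for the atrophy genes Trim63 at 2590 CPM (next 415) and Fbxo32 at 1870 (next 650), for Gadd45a at 77.4 (next 11.4), Nfil3 at 143 (next 51.8), Cebpd at 92.2 (next 36.6), Tsc22d3 at 653 (next 243), Mnda at 8.54 (next 4.5), Ptpn2 at 31.5 (next 20.7) and Cyb5d2 at 3.09 CPM (next 2.16). It was low for Lmod1 at 14.5 (next 68.5) and Scube2 at 1.18 CPM (next 4.8). The joint sample of CHEMO STD replicates 1 and 2 was high for the matrix genes Col1a1 at 8430 CPM (next 3160), Sparc at 1350 (next 711), Fmod at 422 (next 176), Col12a1 at 227 (next 113) and Tnc at 77.8 CPM (next 29.5), and for Cebpd at 43.1, Actg2 at 1.97, Cdh2 at 6.76, Piezo2 at 12.3 and Sema4c at 7.57 CPM.

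Single sets in the other samples were Cyb5d2 at 4.14 CPM in CHEMO STD replicate 6, Fbxo32 at 463, Sbsn at 2.23 and Cacna1d (low) at 0.318 CPM in CHEMO STD replicate 5, and Fras1 (low) at 24.6 CPM in CHEMO STD replicate 7. In CHEMO FO they were Cacna1d at 2.64 CPM in replicate 13, Dbp at 103 in replicate 14, Ppp1r3c at 1850 in replicate 15, Msantd2 (low) at 1.92 in replicate 19 and Arl10 at 3.61 CPM in replicate 20. In TUMOUR STD they were Per2 (low) at 12.8 CPM in replicate 11 and Socs2 at 19.2 CPM in replicate 12.

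Of 91 named genes compared between the arms in edgeR, 7 had an unadjusted p below 0.05, where 4.55 would be expected by chance. Some of these genes were named because the arms were not called alike, and others because they moved the same way in each arm. The 4.55 is therefore no fair yardstick for the 7. The differences, CHEMO FO minus CHEMO STD on the log2 scale, were 1.25 for Trim63, 0.98 for AABR07015055.1, 0.93 for Nfil3, 0.92 for Fbxo32, 0.59 for Dusp1, 0.32 for Cry2 and -0.70 for Armcx4.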

How the results depend on the processing

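Leaving out 1 library at a time gave 168 to 504 pooled calls and 48 to 204 genes moving the same way. The lowest values came without TUMOUR STD replicate 10, and the highest without replicates 8 and 11. With replicate 10 and CHEMO STD replicate 7 both left out the counts were 164 and 42, and with replicate 10 and CHEMO FO replicate 16 left out they were 195 and 55 (both chosen after seeing the data). Without CHEMO STD replicates 1 and 2 the same-way count was 179. With no filter on low counts the counts were 1306 and 381, with a 2-fold threshold 50 and 23, and with no fold threshold 1055 and 312. DESeq2 ran with no filter on low counts, on the 19364 genes with any count, against 11716 in edgeR, so that tool and filter changed together. It gave 421 pooled calls (65.3% lower, against 74.4%) and 137 same-way genes, 100 of them among the 110 of the full fit. In limma voom with sample quality weights the counts were 236 and 82, with 168 among the 312 pooled calls and 53 among the 110. With samples thinned to the shallowest total (10685 genes tested) they were 275 and 103, with 161 among the 312 and 59 among the 110. Scaling by RLE size factors kept 107 of the 110, and by library totals 100. Similar counts therefore did not always mean the same genes. The log2 fold change of Dsp ranged from -3.57 to 0.21 over the fits without 1 library. It reversed to 0.21 without TUMOUR STD replicate 10, and to 0.17 when CHEMO STD replicate 7 was also left out. No adjusted p was below 0.05 in edgeR in any of the 20 fits without 1 library. The smallest ran from 0.066, without CHEMO FO replicate 17, to 0.997, without TUMOUR STD replicate 10. Over 58 named genes and 1852 gene and setting pairs, 1739 kept direction and side of the threshold, 84 lost it, 27 gained it and 2 reversed. Other causes were not tested. No paired analysis was possible because the groups were different animals and the labels give no pairing between them. Depth limits the scarce genes most, since 20 of the 26 higher and 49 of the 84 lower same-way genes averaged below 10 CPM.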

Other observations

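Several gene lists outside the comparisons above held 1 or 2 calls, where 0.683% of all genes tested were called higher and 1.98% lower. Of 13 ATF4 and unfolded protein response genes 2 fell, of 16 interferon-stimulated genes 1 fell, and of 19 TGF beta and activin genes 1 fell, with medians of -0.05, -0.21 and -0.17. Of 13 STAT3 and IL6 family genes 2 rose, with a median of 0.19. Adipocyte markers had a median of 0.29 over 9 genes with 0 called, and 0.74 without TUMOUR STD replicate 10, with 1 called. Schwann cell and myelin markers had a median of -0.27 over 8 genes, and 0.26 without that library, with 0 called in either. Complement genes had a median of 0.13 over 15 genes with 0 called, and 0.30 without that library, with 2 called.

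Genes that span more of the genome had slightly lower values after chemotherapy. In 4 groups of 2687 genes by span in RefSeq GRCr8 (91.7% of genes matched), with median spans of 5.74, 17.6, 38.8 and 113 kb, the median log2 fold change was 0.0362, 0.0168, 0.000318 and -0.0654. Calls lower were 42, 39, 46 and 86 in these 4 groups, and calls higher 22, 21, 11 and 7. This pattern was noticed in these data and its source was not tested.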
